A study of Mus musculus with 9 samples.

Results

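The MHC class I and immunoproteasome genes are the genes by which a cell cuts up its own proteins and shows the fragments at its surface. The 10 members were chosen by symbol, H2-K1, H2-D1, B2m, Tap1, Tap2, Tapbp, Psmb8, Psmb9, Psmb10 and Nlrc5, and all 10 were found among the 54146 genes of the table, each on 1 row. Their mRNA was measured by RNA sequencing of colonic mucosa from 9 C57BL/6J mice at 15 wk of age. All 9 carried ApcMin/+, a heterozygous germline mutation of the tumor suppressor gene Apc that gives rise to intestinal adenomas. Of these, 5 mice (2 female, 3 male) carried nothing further, and 4 mice (3 female, 1 male) were ApcMin/+; p16cis/cis, called p16cis/cis mice hereafter. The p16cis allele carries a knocked-in cis-element that spreads DNA methylation over the promoter of p16, an inhibitor of the cell cycle. Being germline, it is present in every cell type of the mouse, and both genotypes are models of Apc-driven disease. The labels name the tissue as colonic mucosa, and the study's methods describe RNA from colonic crypts. A figure legend of the study calls the sequenced mucosa normal-appearing. The comparison of the 2 genotypes addresses which genes change when the p16 epimutation is added to the Apc mutation.

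Peptides for class I molecules come mostly from the proteasome, a barrel whose cutting sites lie on 3 subunits. Interferon gamma induces a second set of these subunits, Psmb8, Psmb9 and Psmb10, which take the places of Psmb5, Psmb6 and Psmb7 in newly built barrels called immunoproteasomes. The peptides are pumped into the endoplasmic reticulum by the transporter of Tap1 and Tap2, loaded with the help of tapasin (Tapbp) onto a heavy chain (H2-K1 or H2-D1) paired with beta-2 microglobulin (B2m), and shown at the cell surface to CD8 T cells. Nlrc5 is a transcriptional activator of these genes. In the gut most epithelial cells carry class I, and lymphocytes and myeloid cells carry it too.

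In p16cis/cis mucosa the mRNA of Psmb8 and Tapbp rose, that of Psmb10 was higher in the mean without passing the test, and the heavy chains H2-K1 and H2-D1 gave no difference that passed, with 95% intervals that reach no further than -0.43 and 0.27 on the log2 scale. Psmb8 rose from 343 ± 116 (mean normalized count and SD, n = 5) to 722 ± 268 (n = 4), and Tapbp from 3514 ± 312 to 4657 ± 526. At an adjusted p under 0.05 in limma, 2 of the 10 members were higher and 0 were lower. Over the 14410 genes tested 8.14% were called higher and 8.75% lower, a background against which 2 of 10 is a small count. At an unadjusted p under 0.05 the members counted 3 higher and 0 lower, and the 14410 genes tested 2335 higher and 2444 lower. In edgeR with TMM scaling 3 members were higher and 0 lower, beside 1165 genes higher and 1304 lower. With RLE scaling edgeR gave the same member counts, beside 1198 genes higher and 1262 lower. DESeq2 also called 3 members higher and 0 lower, beside 1549 and 1675 of 14401 genes. In limma the count of members higher was 0 with sex or the mitochondrial share in the fit, after correction for GC content and transcript length, and without p16cis/cis replicate 2, 3 or 4. The median log2 fold change of the members was 0.44, and that of all genes tested was -0.00. The proportion of Psmb8 to Psmb5, and of Psmb10 to Psmb7, was higher in all 4 p16cis/cis mice than in any of the 5 ApcMin/+ mice. That of Psmb9 to Psmb6 overlapped. Psmb8 by itself lay apart higher and Psmb7 by itself lower, so these 2 ratios are not support separate from those genes. Of single genes tested 7.24% lay apart higher and 8.95% lower, and the share of gene pairs whose ratio does so was not counted.

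Values here are normalized counts, reads on a gene divided by a size factor of the library. Reads on genes numbered 15745098 to 17885918 in the ApcMin/+ libraries and 13523500 to 14900228 in the p16cis/cis libraries. Mitochondrially encoded genes took 8.74% to 15.6% of the reads in ApcMin/+ mice and 19.3% to 29.8% in p16cis/cis mice, with no overlap, and genotype accounted for 78.1% of the variance of that share. A measure so closely tied to genotype cannot be told apart from it in these 9 mice, and its part in the results was not tested further than by adding it to the fit, which left 0 genes called in either direction. At an unadjusted p under 0.05 that fit gave 353 genes higher and 445 lower. Cdkn2a, the gene of p16, was listed at 0 in all 9 mice and so gives no check of the labels. The epithelial markers were abundant in every mouse. Their summed normalized count was 207787 to 342096 in ApcMin/+ and 174498 to 195798 in p16cis/cis mice, without overlap. Of single genes tested 8.95% lay apart in that direction. Car1 alone ran from 40059.5 to 165058 and weighs heavily in the sum. Log2 fold changes of the 8 markers ran from -1.23 (Slc26a3) to 0.39 (Krt18), with 2 above 0.

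Of the 10 members 7 lie on chromosome 17, in or near the major histocompatibility complex. Positions are those of GENCODE M21 on GRCm38, given for orientation since the build behind the counts was not given in the sources used here. Psmb9 (34181987 to 34187764, minus strand), Tap1 (34187553 to 34197225, plus), Psmb8 (34197721 to 34201454, plus) and Tap2 (34203527 to 34216321, plus) sit side by side within 34335 bp. Tapbp (33915899 to 33929292, plus), H2-K1 (33996017 to 34000347, minus) and H2-D1 (35262730 to 35267499, plus) are on the same chromosome. B2m is on chromosome 2 (122147686 to 122153083, plus), and Psmb10 (105935735 to 105938444, minus) and Nlrc5 (94434356 to 94527272, plus) are on chromosome 8. The bodies of Tap1 and Psmb9 overlap by 212 bases on opposite strands. Whether strand was used in counting was not given in the sources used here, so reads in that overlap cannot be assigned to one gene.

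The promoters of class I genes are known for sites bound by NF-kB and by interferon regulatory factors. The letters before 3 start sites are shown because matches to the fixed motifs searched here differ among the members. RefSeq windows on GRCm38.p6, from 250 bases before to 50 bases after each start site, were at hand for 8 of the members, all but Tap2 and Nlrc5. Stretches of H2-K1 (chr17:34000348-34000547, minus strand, the 200 bases before its start site) and B2m (chr2:122147487-122147685, plus strand, 199 bases) are given 5′ to 3′, with a short stretch of H2-D1 (chr17:35262913-35262942, plus strand). Capitals mark the kB motif in H2-K1 and H2-D1, and the interferon-stimulated response element core and then the kB motif in B2m.
H2-K1: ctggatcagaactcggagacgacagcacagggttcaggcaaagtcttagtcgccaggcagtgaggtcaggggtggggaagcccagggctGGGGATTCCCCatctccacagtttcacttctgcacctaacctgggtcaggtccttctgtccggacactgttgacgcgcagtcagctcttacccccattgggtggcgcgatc
B2m: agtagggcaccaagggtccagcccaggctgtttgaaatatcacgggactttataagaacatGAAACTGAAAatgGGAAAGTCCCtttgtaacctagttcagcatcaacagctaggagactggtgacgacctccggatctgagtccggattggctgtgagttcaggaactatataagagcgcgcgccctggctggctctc
H2-D1: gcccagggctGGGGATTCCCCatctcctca

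The kB motif, searched on both strands, was in 3 of the 8 windows, those of H2-K1, H2-D1 and B2m, and in 8.46% of 32851 RefSeq promoter windows. The first letter of the match lay 111 bases before the start site in H2-K1, 171 in H2-D1, and in B2m it followed shortly after the response element core. The windows of the 2 heavy chains share a run of 47 bases, which takes in the kB match. The interferon-stimulated response element core was in 1 of 8, at 139 bases before the start of B2m, and in 3.44% of all windows. It was searched as a fixed pattern, and other forms of the element were not looked for. The lack of a match in H2-K1 and H2-D1 therefore does not show that their windows hold no site for interferon regulatory factors. The Y box motif, CCAAT, was in 6 of 8 and in 37.4% of all windows. No kB or response element match lay in the windows of Tap1, Psmb8, Psmb9, Tapbp or Psmb10, which says only that these letters are not in these windows. The RefSeq start sites of Psmb9 and Tap1 are 226 bases apart, so that their windows share 275 bases.

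Per kilobase of exon, counting every annotated exon of a gene, the members spanned a range of levels with B2m at the top and Nlrc5 at the bottom. In ApcMin/+ mice the mean normalized count per kilobase was 12335 for B2m, 4258 for H2-D1, 3689.6 for H2-K1, 1230.1 for Psmb10, 969 for Tapbp, 146 for Tap1, 129.5 for Tap2, 111 for Psmb9, 102 for Psmb8 and 10.4 for Nlrc5. In p16cis/cis mice the same scale gave 18407 for B2m, 3936 for H2-D1, 3592 for H2-K1, 1776 for Psmb10, 1284 for Tapbp, 200.5 for Tap1, 107 for Tap2, 156 for Psmb9, 213 for Psmb8 and 13.3 for Nlrc5. On this scale B2m exceeded H2-D1 in 9 of 9 mice, by a ratio of 1.91 to 6.15. Each step from there down to Tap1 was also in the same order in 9 of 9 mice. The step from H2-D1 to H2-K1 was small, at a ratio of 1.03 to 1.39, and rests on the exon lengths used. Before division by length the order of these 2 genes was mixed. H2-K1 against H2-D1 was 11189 against 10162 in ApcMin/+ replicate 1, and 10163 against 12388.5 in ApcMin/+ replicate 4. The orders were not worked out with other lengths, such as that of a single transcript per gene. Tap1, Tap2, Psmb9 and Psmb8 did not keep an order, since Tap1 exceeded Tap2 in 7 of 9 mice, Tap2 exceeded Psmb9 in 4 of 9, and Psmb9 exceeded Psmb8 in 4 of 9.

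**Figure D1:**
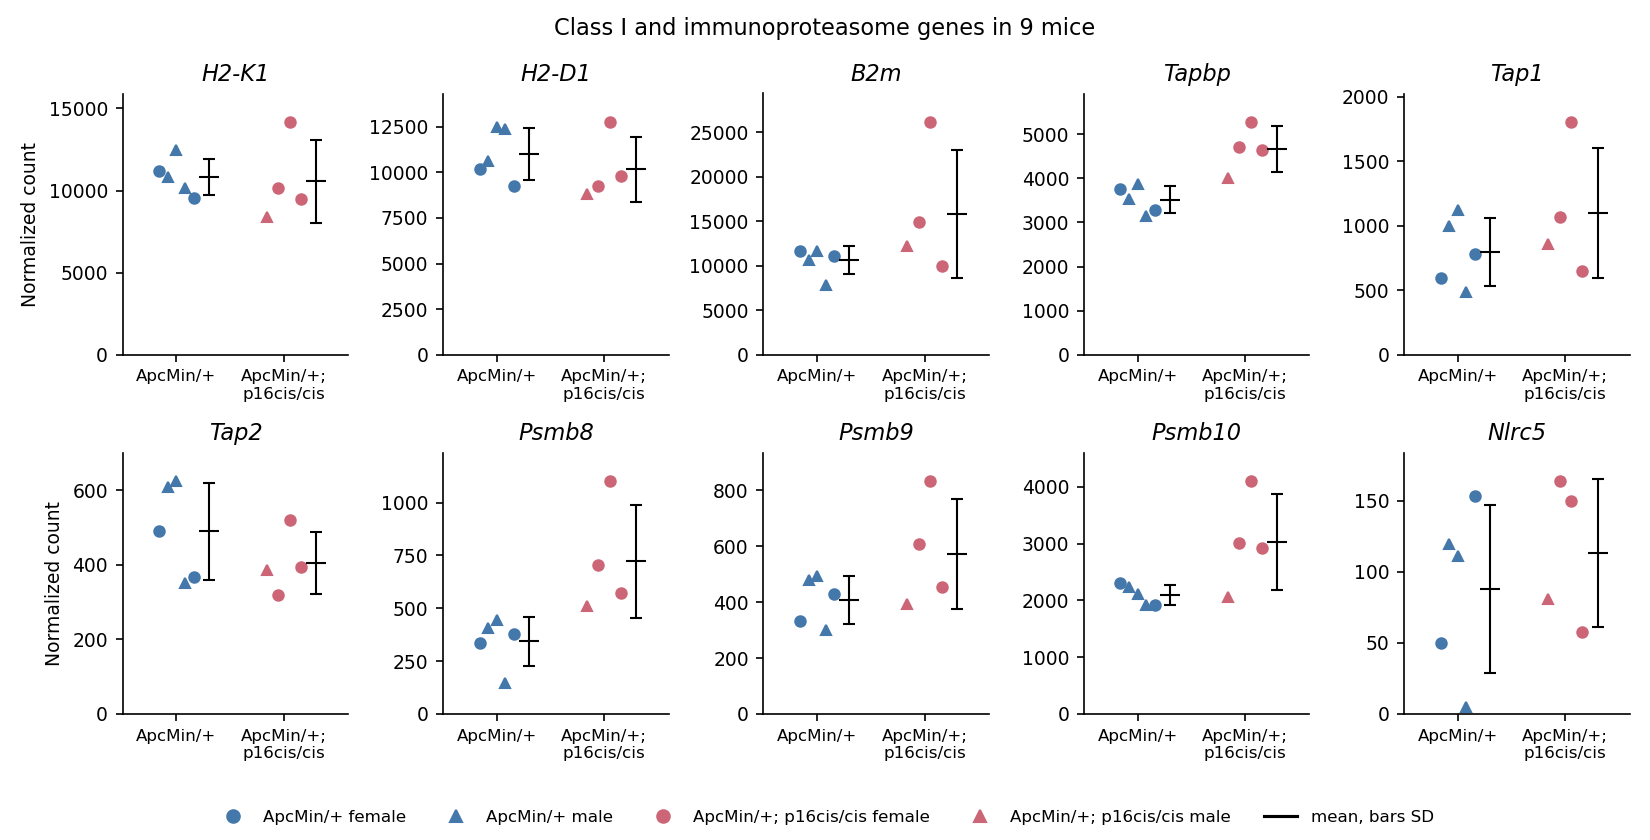
Normalized counts of the 10 members (y axes, each from 0) in 5 ApcMin/+ mice (blue) and 4 p16cis/cis mice (red), with circles for females, triangles for males, and black marks for the mean with SD. Tapbp and Psmb8 are the members whose genotypes do not overlap, and p16cis/cis replicate 3 is the highest point of its genotype in 9 of 10 panels.

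Psmb8 encodes the immunoproteasome subunit that takes the place of Psmb5. Its normalized counts in ApcMin/+ replicates 1 to 5 were 337, 409, 446, 149 and 377, and in p16cis/cis replicates 1 to 4 they were 509, 703, 1104 and 570.2. The genotypes did not overlap, the highest ApcMin/+ mouse lying below the lowest p16cis/cis mouse. The log2 fold change was 1.10 (SE 0.31, 95% interval 0.42 to 1.77, limma adjusted p = 0.0317), and Psmb8 was the member that also passed a fold of 2, as did 1.83% of all genes tested in that direction. Psmb8 did not overlap between genotypes within females (337 to 377 against 570.2 to 1104) or within males (149 to 446 against 509 in 1 mouse), but its adjusted p in limma was 0.0795 with sex in the fit, 0.849 with the mitochondrial share in the fit and 0.0547 after correction for GC content and transcript length. The call was lost in limma without ApcMin/+ replicate 1 (adjusted p = 0.0532) and without p16cis/cis replicate 2 (0.0787), 3 (0.0797) or 4 (0.0599), while the log2 fold change stayed between 0.82 and 1.24. In a bulk tissue fewer cells of a type and less RNA per cell cannot be told apart, here or for any other gene below.

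Tapbp encodes tapasin, which holds the heavy chain to the transporter while a peptide is loaded. Its normalized counts were 3759, 3533, 3870.1, 3136 and 3274 in ApcMin/+ mice and 3999, 4709, 5285 and 4637 in p16cis/cis mice. All 4 p16cis/cis mice lay above all 5 ApcMin/+ mice, by a gap that was small in the case of replicate 1. The log2 fold change was 0.40 (SE 0.11, 95% interval 0.17 to 0.64, limma adjusted p = 0.0263). Its genotypes were also apart within females (3274 to 3759 against 4637 to 5285) and within males (3136 to 3870.1 against 3999). Tapbp lost its call in limma without ApcMin/+ replicate 2 (adjusted p = 0.0589) or p16cis/cis replicate 2 (0.0701), 3 (0.0596) or 4 (0.0664), in females only (0.0820), with sex (0.0688) or the mitochondrial share (0.860) in the fit, without the filter on low values (0.0528) and after correction for GC content and transcript length (0.0810). With replicate numbers as a block it was lost too (limma adjusted p = 0.0548), and with block and correction together (0.133). With Psmb8, it made up the 2 members of 10 that did not overlap in the higher direction, against 7.24% of all genes tested, and 0 of 10 lay apart in the lower direction, against 8.95%.

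Psmb10 encodes the subunit that replaces Psmb7. In ApcMin/+ mice its normalized counts kept close together, at 2299, 2245, 2107, 1919 and 1916, and in p16cis/cis mice they were 2063.4, 3016, 4111 and 2923. Only p16cis/cis replicate 1, the one male of its genotype, fell within the ApcMin/+ range. The means were 2097 ± 178 (SD, n = 5) and 3029 ± 840 (SD, n = 4), and the log2 fold change of 0.49 (SE 0.16, 95% interval 0.14 to 0.85) did not pass in limma (adjusted p = 0.0578). It passed in edgeR with TMM scaling (adjusted p = 0.0439) or RLE scaling (0.0412), in DESeq2 (0.0154), and in limma without p16cis/cis replicate 1 (0.0115). In limma the log2 fold change of Psmb10 was 0.25 after correction for GC content and transcript length (adjusted p = 0.277), 0.23 with the mitochondrial share in the fit (0.928), 0.40 with sex in the fit (0.137) and 0.33 without p16cis/cis replicate 3 (0.125).

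Psmb9 encodes the third inducible subunit, which replaces Psmb6. Its normalized counts were 334, 479, 495, 301 and 430.2 in ApcMin/+ mice and 394, 606, 834 and 454 in p16cis/cis mice. The genotypes overlapped, with p16cis/cis replicates 1 and 4 inside the ApcMin/+ range. The means were 408 ± 86.6 (SD, n = 5) and 572 ± 196 (SD, n = 4), and the log2 fold change of 0.45 (SE 0.22, 95% interval -0.03 to 0.94) did not pass (limma adjusted p = 0.174). Without p16cis/cis replicate 3 the log2 fold change of Psmb9 was 0.25.

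**Figure D2:**
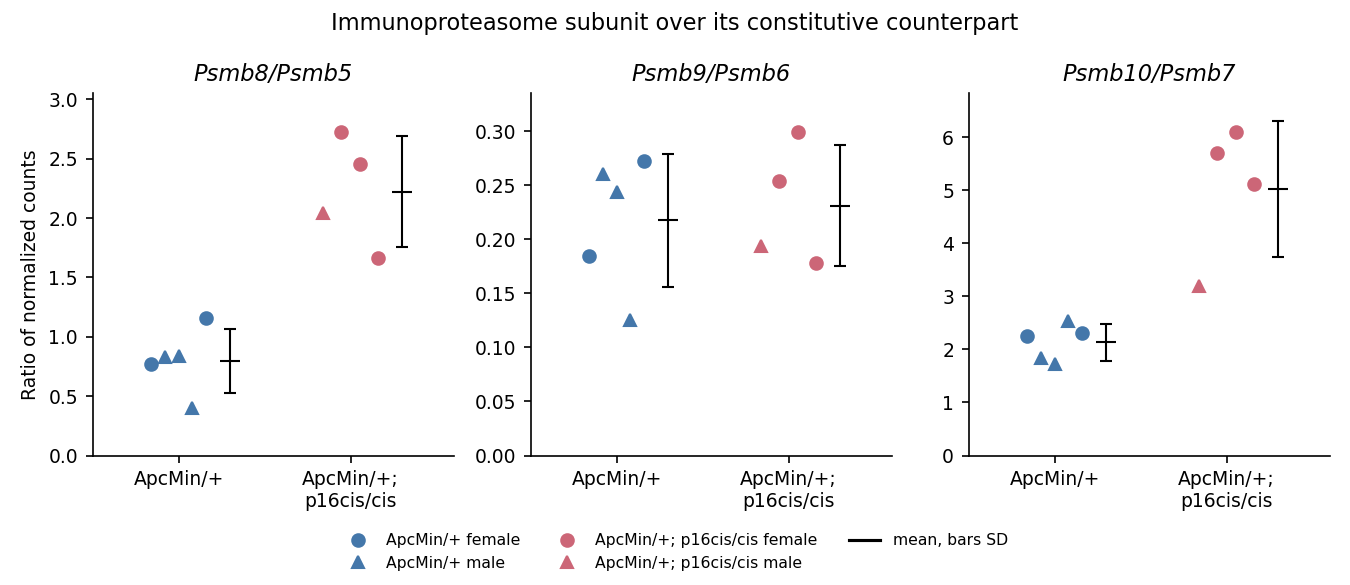
Ratio of the normalized counts of each inducible subunit to that of its constitutive counterpart (y axes, from 0, not corrected for length) in each mouse, with circles for females, triangles for males, and black marks for the mean with SD. Psmb8/Psmb5 and Psmb10/Psmb7 are higher in all 4 p16cis/cis mice than in all 5 ApcMin/+ mice, and Psmb9/Psmb6 overlaps.

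Set against the constitutive subunit whose place it takes, each inducible subunit gives a ratio within a mouse that does not depend on the scaling of the library. The ratio Psmb8/Psmb5 was 0.774, 0.832, 0.835, 0.399 and 1.16 in ApcMin/+ mice and 2.05, 2.72, 2.46 and 1.66 in p16cis/cis mice. Every p16cis/cis mouse thus had more Psmb8 than Psmb5 counts, as had 1 of the 5 ApcMin/+ mice. The mean ratio was 0.800 ± 0.270 (SD, n = 5) against 2.22 ± 0.466 (SD, n = 4), a log2 difference of 1.52, with a two-sided exact permutation p of 0.00794, the smallest that 5 mice against 4 allow, and 0.0119 after Benjamini-Hochberg adjustment over the 3 ratios. Psmb5 itself was at 432 ± 84.7 and 325 ± 93.1, a log2 fold change of -0.43 that did not pass (limma adjusted p = 0.155). After correction for GC content and transcript length the log2 fold change of Psmb5 was -0.77 and passed (limma adjusted p = 0.0220), while it was -0.14 in females only and -0.06 with the mitochondrial share in the fit.

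The ratio Psmb10/Psmb7 was 2.25, 1.84, 1.72, 2.54 and 2.32 in ApcMin/+ mice and 3.20, 5.70, 6.09 and 5.13 in p16cis/cis mice. Again the genotypes did not overlap, and the male p16cis/cis mouse, replicate 1, was the lowest of its genotype. The means were 2.13 ± 0.343 (SD, n = 5) and 5.03 ± 1.28 (SD, n = 4), a log2 difference of 1.21 (two-sided exact permutation p = 0.00794, adjusted over 3 ratios 0.0119). Here the counterpart moved as well, since Psmb7 fell from 1010.8 ± 218 to 605 ± 66.5 (log2 fold change -0.72, SE 0.16, limma adjusted p = 0.0120), without overlap of the genotypes. In females only the Psmb7 call was lost (limma adjusted p = 0.0614), and with the mitochondrial share in the fit its log2 fold change was -0.24. After correction of each library for GC content and transcript length, which was added once the data had been seen, the log2 difference was 0.77 (exact permutation p = 0.0238), more than 1.5 times smaller, while that of Psmb8/Psmb5 was 1.78 (exact permutation p = 0.00794).

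The ratio Psmb9/Psmb6 was 0.184, 0.261, 0.244, 0.125 and 0.273 in ApcMin/+ mice and 0.194, 0.254, 0.299 and 0.178 in p16cis/cis mice. The genotypes overlapped over most of their range. The means were 0.218 ± 0.0618 (SD, n = 5) and 0.231 ± 0.0558 (SD, n = 4), and their log2 difference was 0.11 (two-sided exact permutation p = 0.714). Psmb6 was at 1929.9 ± 308 and 2440.02 ± 316, a log2 fold change of 0.34 (limma adjusted p = 0.0937). That of Psmb6 passed in females only (0.61, limma adjusted p = 0.0425) and without ApcMin/+ replicate 4 (0.43, 0.0219), and was 0.11 after correction for GC content and transcript length. Whether the 3 ratios differ from each other between genotypes was not tested. Leaving out each mouse in turn, the log2 difference ranged from 1.30 to 1.68 for Psmb8/Psmb5, from 1.10 to 1.41 for Psmb10/Psmb7 and from -0.07 to 0.23 for Psmb9/Psmb6.

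The heavy chains gave no difference that passed the test. H2-K1 normalized counts were 11189, 10848, 12449, 10163 and 9551 in ApcMin/+ mice and 8373, 10175, 14199 and 9463 in p16cis/cis mice. The p16cis/cis mice spread on both sides of the ApcMin/+ range, replicate 3 above it and replicates 1 and 4 below it. The log2 fold change of H2-K1 was -0.06 (SE 0.15, 95% interval -0.39 to 0.27, limma adjusted p = 0.816), so the interval leaves out changes of the size measured for Psmb8. H2-D1 normalized counts were 10162, 10633, 12488, 12388.5 and 9229 in ApcMin/+ mice and 8810.4, 9247, 12776 and 9769 in p16cis/cis mice. They overlapped widely, and the log2 fold change of H2-D1 was -0.12 (SE 0.14, 95% interval -0.43 to 0.19, limma adjusted p = 0.596). Of the 50-base windows of the H2-K1 transcript 8.79% were shared with transcripts of other genes, and of H2-D1 14.3%, mostly with H2-Q1 and H2-K1. Such stretches do not tell these genes apart by sequence, and their effect on the counts was not measured. In B2m, Psmb8, Psmb9, Psmb10 and Nlrc5 no such window was shared.

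B2m encodes the light chain that every class I heavy chain needs. Its normalized counts were 11699, 10639.9, 11692, 7882 and 11128 in ApcMin/+ mice and 12187, 14919, 26193 and 10019.6 in p16cis/cis mice. In p16cis/cis mice replicates 1 to 3 lay above all ApcMin/+ mice, and replicate 4 lay below 4 of them. ApcMin/+ replicate 4 was well below the rest of its genotype. The means were 10608 ± 1586 (SD, n = 5) and 15829.8 ± 7194 (SD, n = 4), the latter drawn up by replicate 3, and the log2 fold change of 0.49 (SE 0.24, 95% interval -0.03 to 1.01) did not pass (limma adjusted p = 0.172). Without p16cis/cis replicate 3 the log2 fold change of B2m was 0.22.

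Tap1 and Tap2 form the peptide transporter in equal parts as proteins. Tap1 normalized counts were 595, 996, 1123, 486 and 785 in ApcMin/+ mice and 859, 1070.3, 1809 and 653 in p16cis/cis mice, with wide overlap. The log2 fold change of Tap1 was 0.42 (SE 0.30, 95% interval -0.22 to 1.07, limma adjusted p = 0.347), and it was 0.15 without p16cis/cis replicate 3 and 0.26 without ApcMin/+ replicate 4. Tap2 normalized counts were 492, 610.4, 626, 352 and 368 in ApcMin/+ mice and 386, 319, 519.9 and 394.8 in p16cis/cis mice, again with overlap. The log2 fold change of Tap2 was -0.25 (SE 0.20, 95% interval -0.69 to 0.19, limma adjusted p = 0.416), and with 1 mouse left out it ranged from -0.38 (without p16cis/cis replicate 3) to -0.15 (without p16cis/cis replicate 2).

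Nlrc5 was the lowest member, with 4 to 135 reads in a library, and its values carry the most counting error. Its normalized counts were 50.2, 119.8, 111, 5.08 and 153 in ApcMin/+ mice and 80.8, 164, 150.3 and 58.0 in p16cis/cis mice. ApcMin/+ replicate 4 stood far below the other mice. The log2 fold change of 0.86 had an SE of 0.79 and a 95% interval of -0.87 to 2.58 (limma adjusted p = 0.488). Without ApcMin/+ replicate 4 it was 0.04. With all mice it was 0.35 in edgeR with TMM scaling, 0.36 with RLE scaling and 0.36 in DESeq2.

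**Figure D3:**
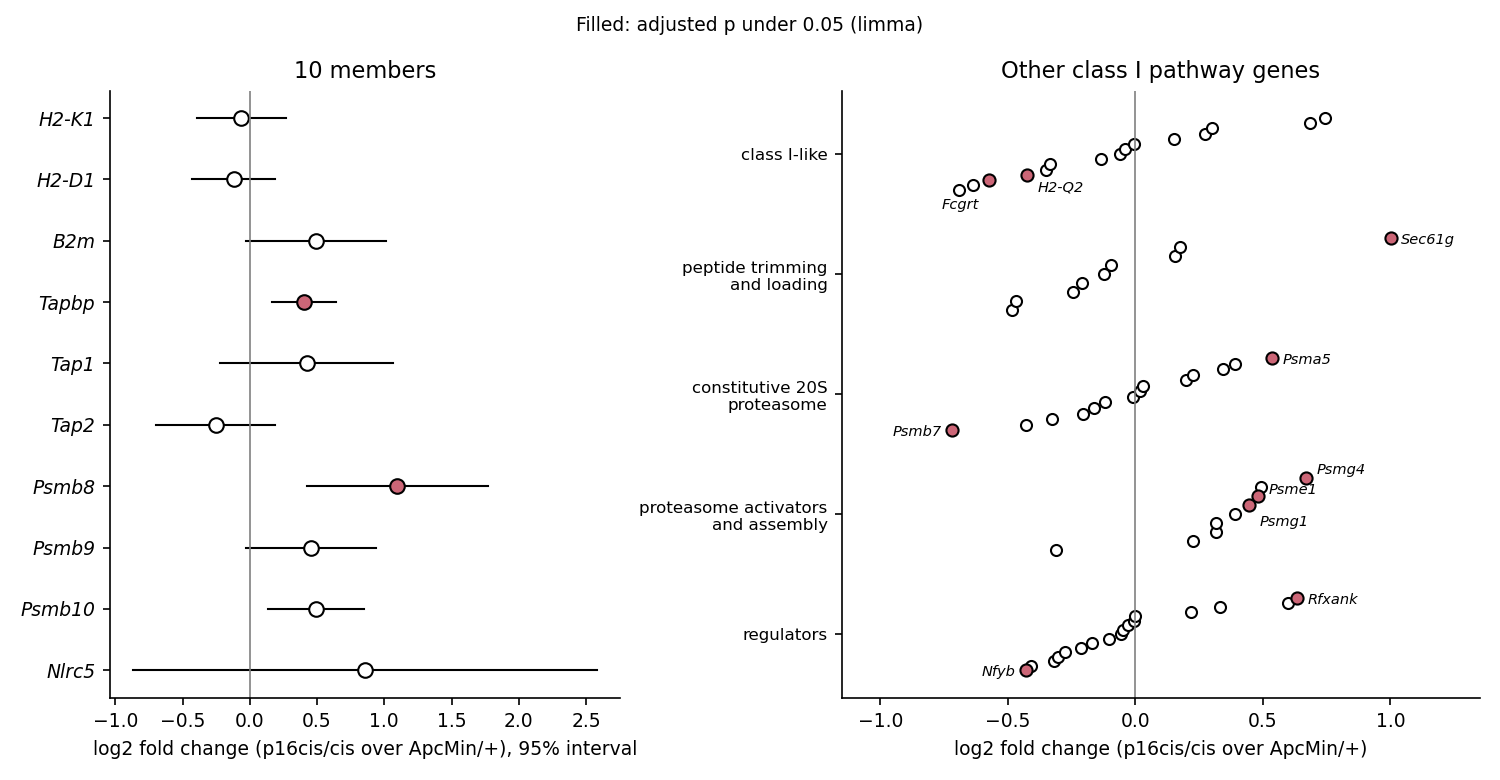
Log2 fold change of p16cis/cis over ApcMin/+ mice for the 10 members with 95% intervals (left) and for the other tested genes of the class I pathway in 5 groups (right), filled where the limma adjusted p is under 0.05. Psmb8 and Tapbp are filled among the members, and 6 genes to the right of 0 and 4 to the left among the other pathway genes.

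Of 67 further genes of the class I pathway 64 passed the filter on low values, and limma called 6 of them higher and 4 lower, against 8.14% and 8.75% of all genes tested. Their median log2 fold change was -0.04, with 27 of 64 above 0. In the activators and assembly factors of the proteasome 3 of 9 rose and 0 fell. In this group 8 of 9 had a log2 fold change above 0, as had 7149 of the 14410 genes tested. The median was 0.39, the highest among the groups of the list. Psme1, a subunit of the PA28 activator that opens the barrel, rose from 2236 ± 92.5 to 3164 ± 652 (log2 fold change 0.48, limma adjusted p = 0.0228), without overlap of the genotypes. Its partner Psme2 was at 881 ± 79.1 and 1101 ± 151 (0.32, adjusted p = 0.0811 in limma). The assembly chaperones Psmg1 (423 ± 42.8 to 578 ± 72.3, limma adjusted p = 0.0309) and Psmg4 (159 ± 31.7 to 253 ± 47.0, limma adjusted p = 0.0272) rose with overlap. Psme4, another activator, was the lowest of its group at -0.31 (adjusted p = 0.0602 in limma). The Psme1 call was lost without p16cis/cis replicate 2 (adjusted p = 0.0616 in limma), that of Psmg1 without any one mouse but ApcMin/+ replicate 4 or p16cis/cis replicate 1 (0.0585 to 0.0930), and that of Psmg4 without ApcMin/+ replicate 1, 2 or 3 or p16cis/cis replicate 2, 3 or 4 (0.0542 to 0.0856). Corrected for GC content and transcript length, the log2 fold changes were 0.33 for Psme1, 0.23 for Psmg1 and 0.20 for Psmg4, none of which passed, and 0.06 for Psme2. With sex in the fit the 3 calls were lost as well (limma adjusted p = 0.0575 for Psme1, 0.0702 for Psmg1 and 0.0668 for Psmg4), and in females only that of Psme1 (0.0959). Psme2 passed without p16cis/cis replicate 1 (limma adjusted p = 0.0428).

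Among the 14 constitutive subunits of the barrel 1 rose and 1 fell, with a median log2 fold change of 0.00. Psma5, a subunit of the outer ring, rose from 369 ± 66.4 to 531 ± 48.2 (log2 fold change 0.54, limma adjusted p = 0.0229), and Psmb7 fell as given above. The Psma5 call was lost without ApcMin/+ replicate 2 or 3 or p16cis/cis replicate 2, 3 or 4 (limma adjusted p from 0.0524 to 0.0665), and the Psmb7 call held in 9 of 9 limma fits with 1 mouse left out. Among the 9 genes of peptide trimming and loading 1 rose and 0 fell. It was Sec61g, a subunit of the channel into the endoplasmic reticulum, at 44.1 ± 9.70 and 88.5 ± 15.3 (log2 fold change 1.00, limma adjusted p = 0.0153), from 25 to 70 reads in a library, and its call was lost in females only (limma adjusted p = 0.0913). Erap1, the peptidase that trims peptides to length, lay at the other end with -0.48 (adjusted p = 0.119 in limma).

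Of the 15 class I-like genes tested 0 rose and 2 fell, with a median log2 fold change of -0.06. H2-Q2, a class Ib heavy chain, fell from 1277 ± 189.7 to 947 ± 100.4 (log2 fold change -0.43, limma adjusted p = 0.0352), and Fcgrt, the neonatal Fc receptor that carries IgG across epithelium, fell from 1632 ± 429.6 to 1069 ± 109 (-0.57, limma adjusted p = 0.0469). Neither overlapped between genotypes, yet the H2-Q2 call was lost without ApcMin/+ replicate 2 or 3 or p16cis/cis replicate 1, 2 or 4 (limma adjusted p from 0.0609 to 0.0968), and the Fcgrt call without any one mouse but ApcMin/+ replicate 2 or 5 (0.0565 to 0.112). Both were also lost with sex in the fit (limma adjusted p = 0.0855 for H2-Q2 and 0.114 for Fcgrt), in females only (0.420 for H2-Q2, with a log2 fold change of -0.20, and 0.219 for Fcgrt) and without the filter on low values (0.0567 and 0.0560), while the correction for GC content and transcript length gave H2-Q2 a log2 fold change of -0.71. The ends of this group were H2-T3, which encodes a ligand of CD8 alpha chains on gut lymphocytes, at -0.69 (limma adjusted p = 0.0733), and H2-Q6 at 0.74 (limma adjusted p = 0.310). H2-M2 and Mr1 did not pass the filter.

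Of the 17 tested regulators of class I transcription 1 rose and 1 fell, with a median log2 fold change of -0.06. Rfxank, a part of the RFX complex that binds class I and class II promoters, rose from 379 ± 34.3 to 595 ± 114 (log2 fold change 0.63, limma adjusted p = 0.0117), and its call held in 9 of 9 limma fits with 1 mouse left out but not in females only (limma adjusted p = 0.0728). Nfyb, a part of the factor that binds CCAAT, fell from 506 ± 54.9 to 374 ± 24.1 (-0.43, limma adjusted p = 0.0260), a call lost without ApcMin/+ replicate 1, 2 or 3 or p16cis/cis replicate 1, 2 or 4 (0.0570 to 0.0737), with sex in the fit (0.0565), in females only (0.232) and after correction for GC content and transcript length (0.219, with a log2 fold change of -0.23). Irf1, an activator that interferon gamma induces, was at 1938 ± 399 and 1909.5 ± 271 (-0.00, limma adjusted p = 0.995). Ifng itself did not pass the filter.

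**Figure D4:**
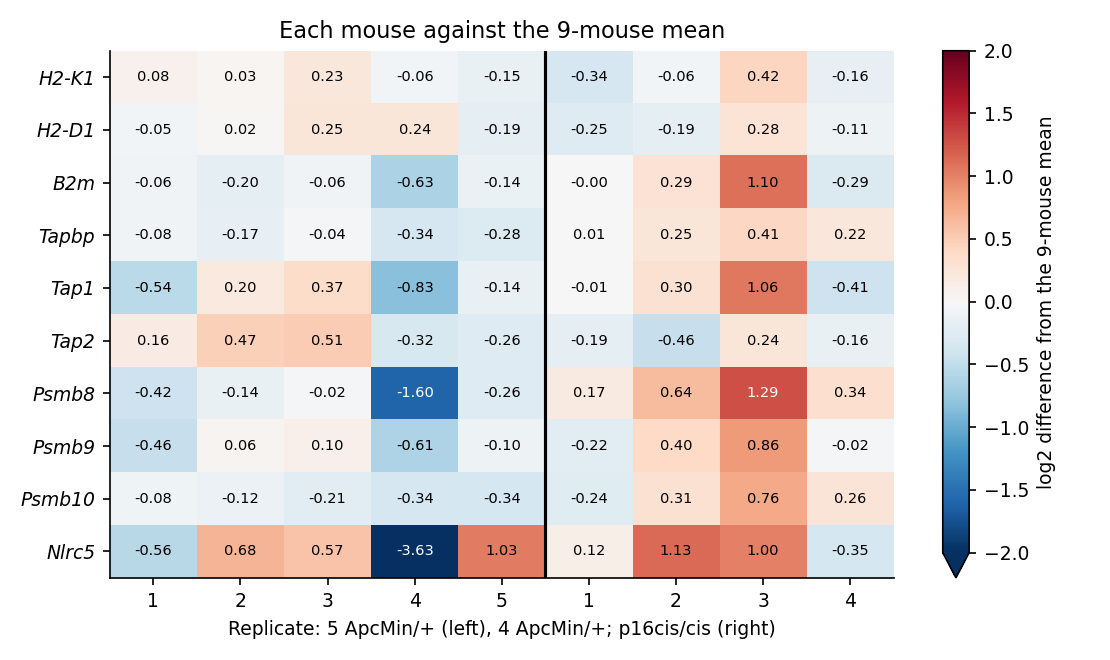
Log2 difference of each mouse from the mean of the 9 mice for each member, with ApcMin/+ replicates 1 to 5 left of the line and p16cis/cis replicates 1 to 4 right of it, on a color scale cut at 2 in either direction. ApcMin/+ replicate 4 is the bluest column and p16cis/cis replicate 3 the reddest.

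Within a genotype the members varied together from mouse to mouse. Averaged over the 10 members, the log2 deviation from the 9-mouse mean was -0.20, 0.08, 0.17, -0.81 and -0.08 in ApcMin/+ replicates 1 to 5 and -0.10, 0.26, 0.74 and -0.07 in p16cis/cis replicates 1 to 4. Without Nlrc5, which had 4 reads in ApcMin/+ replicate 4, these means were -0.16, 0.02, 0.13, -0.50 and -0.21, and -0.12, 0.16, 0.71 and -0.03. ApcMin/+ replicate 4 was the lowest of its genotype in 7 of the 10 members, and p16cis/cis replicate 3 was the highest of its genotype in 9 and the highest of all mice in 8. With the genotype means taken out, the correlation over the 9 mice was above 0 in 44 of the 45 pairs of members (median Pearson r 0.69, range -0.25 to 0.93). Psmb8 followed the mean of the other 9 members most closely (r = 0.98), then Psmb9 and Tap1 (r = 0.91 each). B2m (0.82), Tapbp (0.77), H2-K1 (0.71), Tap2 (0.66), Nlrc5 (0.64) and Psmb10 (0.62) came next, and H2-D1 followed least (0.24). Nlrc5 weighs most in the means that hold it, with a log2 SD of 1.91 within ApcMin/+ mice against 0.12 to 0.64 for the other members. With single members, r of H2-D1 ran from -0.25 (Nlrc5) to 0.80 (H2-K1), and Psmb8 was at 0.89 with Nlrc5. The ranking was not repeated without Nlrc5. In each of these correlations the points share a library, its depth and its scaling. They were not repeated without ApcMin/+ replicate 4 or p16cis/cis replicate 3, the mice farthest from the 9-mouse mean, which weigh heavily in them.

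Among 10411 genes with a mean normalized count of at least 100, those most like the members in this sense included Rsad2 (r = 0.97), Isg15, Bst2, Bysl, Ruvbl2 and Rnf31 (0.96 each), and Gmppb, Atp1b3 and H2-Eb1 (0.95 each). The median r of all genes compared was -0.01. Of these, Rsad2, Isg15 and Bst2 are known interferon-induced genes, and H2-Eb1 encodes a class II chain. Bst2 normalized counts were 189, 328, 245, 99.1 and 228 in ApcMin/+ mice and 333, 419.5, 681 and 288 in p16cis/cis mice. They were lowest in ApcMin/+ replicate 4 and highest in p16cis/cis replicate 3, as were those of Psmb8. None of the genes named here passed the test between genotypes (limma adjusted p from 0.0529 for Bst2 to 0.982 for Bysl). The mean of the members took in Nlrc5, and this list was not drawn up again without it. Nor was it drawn up without ApcMin/+ replicate 4 or p16cis/cis replicate 3.

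Markers of other cells of the mucosa were low beside those of epithelium. The T cell markers summed to a normalized count of 43.2 to 672 in ApcMin/+ mice and 194 to 348 in p16cis/cis mice, and of the 5 of 6 that were tested 0 were higher and 0 lower. B and plasma cell markers summed to 35.6 to 927 and 36.0 to 188 (6 of 6 tested, 0 higher, 1 lower), myeloid markers to 137 to 977 and 222 to 362 (6 of 7 tested, 0 higher, 1 lower), and stromal and vessel markers to 179 to 469.9 and 172 to 309 (7 of 7 tested, 0 higher, 1 lower). Of the 8 epithelial markers 0 were higher and 1 lower, and no marker of any list was at 0 in all mice. The myeloid list holds Ptprc (CD45), which T and B cells carry too, and which ran from 30.5 to 750 over the 9 mice. Every other marker of that list stayed at or below 116. The myeloid sum is therefore not a measure of myeloid cells alone, nor separate from the T cell sum. ApcMin/+ replicate 4, lowest in most members, had the lowest T cell and myeloid sums of all 9 mice and the highest epithelial sum, 342096. p16cis/cis replicate 3, highest in most members, had T cell (258) and myeloid (286) sums inside the range of the other p16cis/cis mice, and the highest B and plasma cell sum of its genotype, 188 against 36.0 to 89.3. Its epithelial sum, 195798, was also the highest of its genotype. The part of cell makeup in these differences was not tested.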

How the data were processed

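RNA of 9 mice was enriched for mRNA and sequenced on the BGISEQ-500, and the authors processed the reads with BOWTIE2, RSEM and DESeq2. Versions, build and strandedness were not given in the sources used here. The deposited values are gene counts that the authors divided by a size factor, a signal scale on which 100% of positive values were whole reads within 0.01 reads, so that the reads could be recovered. Identifiers matched GENCODE M21 in 52480 of 54146 cases with the same version.

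The members and lists were chosen with earlier results of these data known. Genes that reached 10 in 4 or more mice were tested with limma 3.58.1 in R 4.3.3 (trended variances, log2 of the value plus a pseudocount of 1), with Benjamini-Hochberg adjustment over all 14410 and a threshold of 0.05. A pseudocount of 1 draws the fold changes of low genes toward 0, while 1 very low library can enlarge them, as in Nlrc5. Ratios were tested by exact permutation. Named were all members, pathway genes that passed or lay at the end of a group, Psmb5, Psmb6, Psmb7, Psme1, Psme2, Irf1, and genes among the 10 most like the members. One gene that the rule names, and a promoter motif, are not reported here. Alternatives used edgeR 4.0.16 (TMM or RLE) and DESeq2 1.42.0 on recovered reads, limma on TMM-scaled values, other filters and pseudocounts, covariates, subsets and thresholds. A correction of each library by loess (span 0.5) for GC content and transcript length was added after seeing the data. The fit was tested on simulated data. Same-numbered mice of the genotypes did not deviate together (correlations from -0.18 to 0.14), so numbers were not taken as pairs. The labels do not say more of the replicates than that they are separate samples, and p-values measure the spread between these samples. Columns of other samples numbered 0.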

Additional observations from a re-analysis of the deposited data

Results flagged for a closer look

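B2m, the light chain of class I molecules, had 1 mouse far from the others of its genotype. Its normalized count was 7882 in ApcMin/+ replicate 4 and 10639.9 to 11699 in the other 4 ApcMin/+ mice, so that the gap to the nearest mouse took up most of the range of the genotype. The members and ratios gave 26 groups of mice to check in this way, and 1 such mouse was found, where chance gives about 1.3. The same mouse was the lowest of its genotype in 7 of the 10 members.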

How the results depend on the processing

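Depth limits Nlrc5, with 4 to 135 reads in a library, and 3 females against 2 or 4 numbered pairs cannot give an exact permutation p under 0.05. Over all genes 1173 were higher and 1261 lower, which became 676 and 761 with sex as a covariate, 519 and 379 in females only, 0 and 0 with the mitochondrial share as a covariate, 5 and 22 under Bonferroni adjustment, 264 and 237 with a fold over 2 as well, 626 and 668 under the GC and length correction with the replicate block, and 535 to 1691 and 648 to 1797 with 1 mouse left out. The GC and length correction alone left 831 genes lower. Of the members 2 were higher, against 1 with no filter, 0 with sex, 1 in females only, 0 with the mitochondrial share, 0 under Bonferroni, 1 with a fold over 2, 0 under the GC and length correction, 1 under it with the replicate block, and 0 to 3 with 1 mouse left out, while 0 were lower throughout. Members at an unadjusted p under 0.05 were 3 higher with sex, 0 with the mitochondrial share and 2 under the GC and length correction. Of the 14410 genes tested 2000, 353 and 2185 were higher at that threshold in the same fits. Pathway genes higher, 6, became 3 with sex, 0 with the mitochondrial share, 0 under Bonferroni, 1 with a fold over 2, 3 under the GC and length correction with the replicate block and 2 to 10 with 1 mouse left out. Pathway genes lower, 4, became 2 with no filter, 1 with sex, 2 in females only, 0 with the mitochondrial share, 0 under Bonferroni, 7 in DESeq2, 0 with a fold over 2 and 1 to 9 with 1 mouse left out.

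The log2 difference was 1.24 for Psmb8/Psmb5 and 1.30 for Psmb10/Psmb7 in females only (exact permutation p = 0.1), and 1.68 and 1.24 within replicate numbers as a block (exact permutation p = 0.125), these being the smallest p that the numbers of mice allow. With mice exchanged within sex both had an exact permutation p of 0.025. With 1 mouse left out the range was 1.30 to 1.68, 1.10 to 1.41 and, for Psmb9/Psmb6, -0.0735 to 0.23. Small log2 fold changes turned sign, H2-K1 to 0.10 in females only (-0.21 to 0.0399 with 1 mouse left out), H2-D1 to 0.12 in females only and 0.14 with the mitochondrial share, Tap2 to 0.35 with the mitochondrial share, and Irf1 to 0.0123 with the replicate block (-0.15 to 0.0663 with 1 mouse left out). With the replicate block 3 members were called higher, Psmb8, Tap1 and Psmb9, while Tapbp lost its call (limma adjusted p = 0.0548). The cause of these changes was not tested beyond the smaller number of mice in the subsets.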
